A study of Mus musculus with 4 samples.

Results

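The respiratory chain genes were the protein-coding genes whose symbols start with Nduf, Sdh, Uqcr, Cox4, Cox5, Cox6, Cox7, Cox8, Atp5, mt-Nd, mt-Co, mt-Cytb or mt-Atp. Of 110 such genes, 105 reached an FPKM (fragments scaled to gene length and library depth) of at least 1 in 2 or more libraries, 93 of them nuclear and 12 mitochondrially encoded. They stand among 13147 genes that passed the same limit. Cox7b2, Cox8b, Cox8c, Sdhaf1 and mt-Nd4l did not pass. Just inside the limit were mt-Co3 (1.14 to 2.27 FPKM), mt-Atp8 (0.68 to 4.39 FPKM) and Sdhaf3 (1.31 to 1.92 FPKM), and just outside it Sdhaf1 (0.51 to 0.86 FPKM).

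RNA came from lung tumours of Balb/c mice that were Nrf2 +/+ (wild type, 2 libraries) or Nrf2 -/- (knockout, 2 libraries). All had been given vinyl carbamate, a chemical carcinogen, at 16 mg/kg in 2 or 4 doses, and tumours were taken 40 to 44 weeks later and pooled, 3 to 4 to a sample. Doses, weeks and tumour numbers are not tied to single samples in the labels, which also leave out how the allele was made and the age of the mice at dosing. The design text speaks of separate mice, and p-values measure the spread between these 4 samples. Because each sample is a piece of bulk tissue, fewer cells of a type and less RNA per cell cannot be told apart. Nrf2, encoded by Nfe2l2, activates antioxidant and detoxification genes.

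From the values, the depth came to 21659572 and 21220307 reads for wild type 1 and 2 and to 17975646 and 16892588 reads for knockout 1 and 2. A respiratory chain gene had a median of 1318.5 recovered reads, which can be too few where no annotated gene length fitted. Nfe2l2 was at 96.3 and 87.9 FPKM in wild type 1 and 2 and at 3.66 and 2.96 FPKM in knockout 1 and 2 (log2 fold change -4.44, limma adjusted p = 0.000378). Sftpc, a marker of alveolar type 2 cells, was the top gene of all 4 libraries, and all 8 alveolar type 2 markers passed the limit.

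The respiratory chain carries electrons from NADH (complex I) and succinate (complex II) through complex III to oxygen at complex IV, and complex V uses the resulting proton gradient to make ATP. Most subunits are encoded in the nucleus and imported. A small catalytic set is encoded in mitochondrial DNA, which is transcribed from both strands into long precursors that are then cut into single RNAs. Complex II has no mitochondrially encoded subunit. In lung, alveolar type 2 cells are rich in mitochondria.

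The 13 mitochondrial genes formed 2 classes of level, and their sequence is shown because it bears on how reads could be assigned. A stretch of mitochondrial DNA, chrM:6390-11042 in GRCm38, is annotated a second time on the nuclear genome, as 7 pseudogenes at chr1:24611535-24616197, each at least 99% identical to its mitochondrial gene over the aligned bases. The stretch was taken as the span from the first to the last aligned base, gaps between the pseudogenes included. It holds the whole of mt-Co2, mt-Atp8, mt-Atp6, mt-Co3, mt-Nd3 and mt-Nd4l, the end of mt-Co1 and the start of mt-Nd4. Of mt-Atp8, only 43 of 204 bases aligned to a pseudogene, Gm10925, the copy of mt-Atp6. A copy of the rest of mt-Atp8 was not found among the annotated transcripts. The lines below set 60 bases of 3 mitochondrial genes, read from GENCODE transcripts, above the matching bases of their nuclear copies. Capitals mark the bases that differ.
mt-Co2, chrM:7323-7382, plus strand: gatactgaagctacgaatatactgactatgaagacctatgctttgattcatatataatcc
Gm28661, chr1:24615196-24615255, minus strand: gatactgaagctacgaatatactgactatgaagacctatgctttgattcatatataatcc
mt-Nd3, chrM:9459-9518, plus strand: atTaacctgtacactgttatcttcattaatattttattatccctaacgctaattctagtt
Gm28438, chr1:24613060-24613119, minus strand: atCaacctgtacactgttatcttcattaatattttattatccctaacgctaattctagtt
mt-Co1, chrM:6390-6449, plus strand: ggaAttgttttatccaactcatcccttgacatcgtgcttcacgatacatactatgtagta
Gm29216, chr1:24616129-24616188, minus strand: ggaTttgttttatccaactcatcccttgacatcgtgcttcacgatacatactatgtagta

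The mt-Co2 pair has no difference over its 681 aligned bases. The mt-Nd3 pair differs by 1 substitution, T3C, over 345 bases, and the mt-Co1 pair by 1, A1066T, over 483 bases (positions from 1 at the first base of the mitochondrial gene, whose base is written first). A read that covers none of the differing bases matches both places equally well, and how the authors counted such reads is not given in the sources used here.

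The 7 mitochondrial genes that lie at least partly outside the copied stretch were among the most abundant respiratory chain genes. Of these, mt-Co1 and mt-Nd4 lie partly inside it, with 483 and 876 bases aligned to their nuclear copies. All 7 are called outside the copied stretch below. For all 7, both knockout libraries lay above both of wild type, as for 22.7% of all tested genes. mt-Co1, the catalytic subunit of cytochrome c oxidase (complex IV), was at 4098 and 5246 FPKM in wild type 1 and 2 and at 8949 and 6475 FPKM in knockout 1 and 2. mt-Cytb, cytochrome b of complex III, was at 2110 and 2612 FPKM against 4697 and 3650 FPKM. mt-Nd1, a membrane subunit of complex I, was at 1575 and 1991 FPKM against 2972 and 2483 FPKM. In each of these 3 genes wild type 1 was lowest and knockout 1 highest.

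The other complex I genes of this set were near 1000 FPKM and had the same order of libraries. mt-Nd2 was at 679 and 778 FPKM in wild type 1 and 2 and at 1545 and 1157 FPKM in knockout 1 and 2, and mt-Nd4 at 693 and 778 FPKM against 1447 and 1176 FPKM. mt-Nd5 was at 760 and 894 FPKM against 1511 and 1251 FPKM. mt-Nd6, which lies on the opposite strand to the other 12 genes and overlaps the end of mt-Nd5, was at 744 and 782 FPKM against 1381 and 1205 FPKM. Its level was 97.9%, 87.4%, 91.4% and 96.3% of that of mt-Nd5 in wild type 1 and 2 and knockout 1 and 2.

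The 6 genes wholly inside the copied stretch were listed far lower. mt-Nd3, a complex I subunit, was at 18.8 and 20.9 FPKM in wild type 1 and 2 and at 45.9 and 36.2 FPKM in knockout 1 and 2. mt-Atp6, the proton channel subunit of complex V, was at 5.49 and 6.16 FPKM against 11.9 and 7.91 FPKM. mt-Co2, which carries the copper centre that accepts electrons from cytochrome c, was at 1.82 and 2.07 FPKM against 3.09 and 2.34 FPKM, and its neighbour in the complex, mt-Co3, at 1.18 and 1.14 FPKM against 2.27 and 1.28 FPKM. In these 4 genes both knockout libraries were above both of wild type, and knockout 1 was highest.

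mt-Atp8, a small complex V subunit that overlaps mt-Atp6, rested on 3, 19, 16 and 7 reads in wild type 1 and 2 and knockout 1 and 2, and its groups overlapped. mt-Nd4l had 0, 1, 1 and 1 reads. The nuclear copies took few reads as well: Gm28438, the copy of mt-Nd3, had 57, 57, 101 and 68 reads, and Gm28661, the copy of mt-Co2, had 6, 16, 41 and 9. The levels of the 6 genes can depend on how reads that match both places were counted, which was not tested. Several summaries are given with and without these 6 genes.

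**Figure D1:**
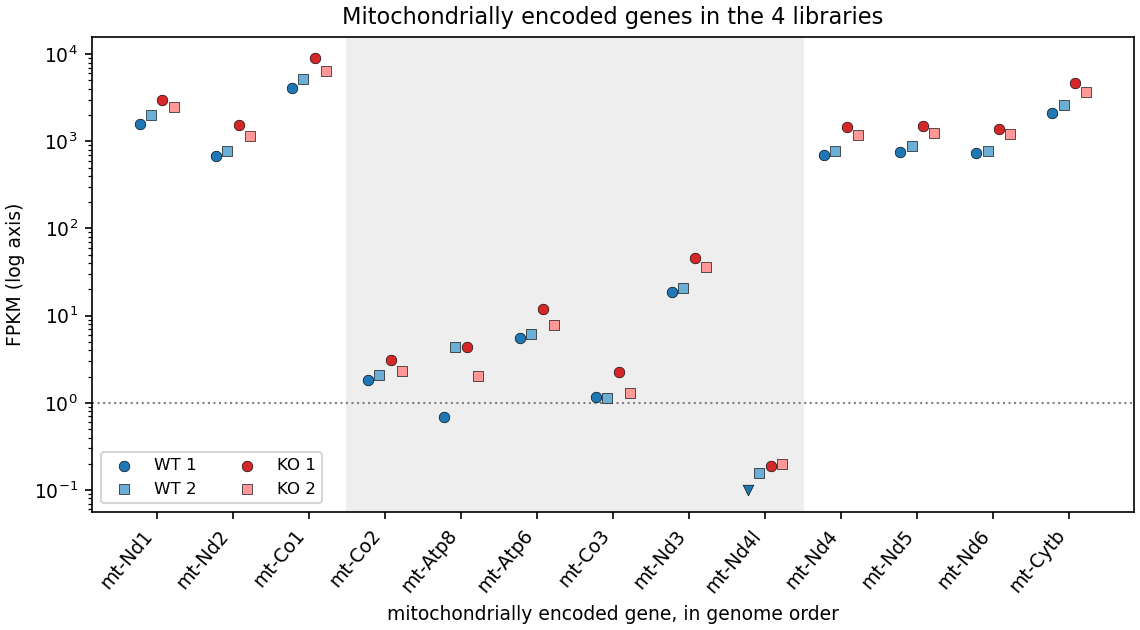
FPKM (log axis) of the 13 mitochondrially encoded genes in genome order, with 1 point per library; blue points are the 2 wild-type and red points the 2 knockout libraries. The grey band holds the 6 genes wholly inside the stretch copied to chromosome 1, at most 45.9 FPKM, while the 7 others are at 679 FPKM or more; the dotted line is the limit of 1 FPKM and the triangle marks a value of 0.

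No respiratory chain gene passed limma's test at an adjusted p under 0.05 over 13147 genes. Called genes numbered 0 of 105, where 0.114% of all tested genes were called (0.0761% higher, 0.038% lower). The lowest adjusted p was that of mt-Nd3, with a log2 fold change of 1.00 ± 0.14 (SE, limma adjusted p = 0.0918). Without knockout 2 this gene was called (limma adjusted p = 0.0315). Limma-voom on the recovered reads also called 0 of the 105. At a limma unadjusted p under 0.05, 44 of the 105 were higher in knockout tumours and 0 lower, where 8.36% of all tested genes were higher and 7.01% lower. Fold changes here are on the log2(FPKM + 1) scale.

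Without a call for single genes, the direction was shared. The log2 fold change was above 0 for 94 of 105 genes, and for 49.2% of all tested genes. Of the 93 nuclear ones, 55 have a coding length of up to 500 nt. Among other nuclear protein-coding genes of that length the share above 0 was 82.2%. Both knockout libraries lay above both wild-type libraries for 72 genes (22.7% of all tested genes) and below them for 1, Cox4i2 (25.4%). Of the 1019 other nuclear protein-coding genes of up to 500 nt, 499 (49.0%) lay above and 51 below. Wild type 1 was the lowest library for 88 genes (27.6% of all tested genes). It was the lowest for 69 of the 72, and for 1653 of the 2990 tested genes with both knockout libraries above both of wild type. The log2 fold change was above 0 for 86 of the 105 genes without wild type 1 and 95 without wild type 2. It was above 0 for 101 without knockout 1 and 91 without knockout 2. The median log2 fold change of all tested genes was -0.017, 0.0048, 0.011 and -0.023 in these 4 fits.

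Mitochondrially encoded genes had the larger fold changes. Their median log2 fold change was 0.73 over 12 genes (0.33 to 1.00) and 0.76 over the 7 at least partly outside the copied stretch (0.62 to 0.88). The median was 0.26 over the 93 nuclear genes (-0.19 to 0.73) and -0.0043 over all tested genes. At a limma unadjusted p under 0.05, 8 of the 12, 6 of the 7 and 36 of the 93 were higher, where 8.36% of all tested genes were. Knockout 1 was the highest library for 11 of the 12 mitochondrial genes (20.3% of all tested genes), and knockout 2 for 51 of the 93 nuclear genes (30.1% of all tested genes).

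Within each library, the median of log2(FPKM + 1) of the mitochondrial genes exceeded that of the nuclear genes by 3.15 and 3.03 in wild type 1 and 2 and by 3.87 and 3.54 in knockout 1 and 2. Its mean was 3.09 ± 0.085 over the wild-type libraries and 3.70 ± 0.23 over the knockout libraries (SD, n = 2 each), a difference of 0.61. Over the 7 genes outside the copied stretch the excess was 3.30, 3.23, 3.99 and 3.64, a difference of 0.55. As a ratio of median FPKM, these 7 genes stood at 9.96 and 9.48 times the nuclear genes in wild type 1 and 2 and at 16.1 and 12.6 times in knockout 1 and 2. The groups did not overlap on any of these measures, and with 2 libraries against 2 an exact permutation test could not go below 0.33.

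By share of reads the genotypes did not overlap either. Wild type 1 had the lowest shares, whereas the excess over nuclear genes was lowest in wild type 2. Mitochondrial protein-coding genes took 1.37% of reads in wild type 1 (95% exact binomial interval 1.36% to 1.37%) and 1.69% in wild type 2 (1.69% to 1.70%). They took 2.91% in knockout 1 (2.91% to 2.92%) and 2.23% in knockout 2 (2.22% to 2.24%). The nuclear respiratory chain genes took 0.757% and 0.853% in wild type 1 and 2 and 0.925% and 0.958% in knockout 1 and 2. Most of the nuclear genes had reads recovered at the smallest gene length that worked, and the mitochondrial genes at annotated lengths. The nuclear shares can therefore be too low and are not comparable in size with the mitochondrial ones. The intervals cover counting error only and are far narrower than the gaps between libraries of 1 genotype.

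Genes of red blood cells had the same order of libraries as the mitochondrial genes outside the copied stretch. The 4 haemoglobin genes took 0.0140% and 0.0278% of reads in wild type 1 and 2 and 0.0679% and 0.0622% in knockout 1 and 2. Of the 8 erythroid markers 5 passed the limit, with a median log2 fold change of 1.42, and their part in the mitochondrial values was not tested. Both knockout libraries were above both of wild type for all 6 tested neutrophil markers (median log2 fold change 1.56, 3 of them called by limma), all 8 T cell markers (0.90) and 4 of 6 B and plasma cell markers (0.69), where 22.7% of all tested genes were. The same held for 4 of 6 club and secretory markers (median 1.08), 5 of 7 fibroblast markers (0.61, 1 called by limma), 3 of 4 ciliated markers (0.54), 5 of 9 smooth muscle and pericyte markers (0.42) and 2 of 8 endothelial markers (0.46). The 8 macrophage markers had a median of 0.020, with 1 higher and 1 lower in both knockout libraries, and the 7 alveolar type 1 markers one of 0.033, with 2 higher and 1 lower. Of the 8 alveolar type 2 markers, 5 were lower in both knockout libraries (25.4% of all tested genes) and 0 higher, with a median of -0.16, and 2 were lower at a limma unadjusted p under 0.05. The part of these cell types in the respiratory chain values was not tested either.

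Among nuclear genes, complexes III and IV and the accessory part of complex I had the larger median fold changes, and the catalytic core of complex I and complex II had small ones. These groups were not matched for coding length, and the 7 core subunits run from 636 to 2181 nt. Other nuclear protein-coding genes had a median of 0.19 up to 500 nt and -0.059 over 1000 nt. The part of length in the differences between complexes was not tested. The median log2 fold change was 0.40 for complex III (8 genes), 0.35 for complex IV (17 genes) and 0.34 for the accessory subunits of complex I (29 genes). It was 0.26 for complex V (17 genes), 0.14 for the core subunits of complex I (7 genes), 0.14 for its assembly factors (8 genes) and 0.13 for complex II with its assembly factors (7 genes). At an unadjusted p under 0.05, 5 of 8, 9 of 17 and 15 of 29 genes of the first 3 groups were higher. For complex V the count was 6 of 17, and for both the complex I core and complex II 0 of 7. Of all tested genes, 8.36% were higher at that limit. Without wild type 1 the medians of complex III, the accessory subunits and complex V were 0.25, 0.20 and 0.15, and those of the complex I core, its assembly factors and complex II 0.0099, 0.074 and 0.054. Without wild type 2 the last 3 were 0.25, 0.24 and 0.21, and without knockout 2 0.045, 0.039 and 0.091.

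**Figure D2:**
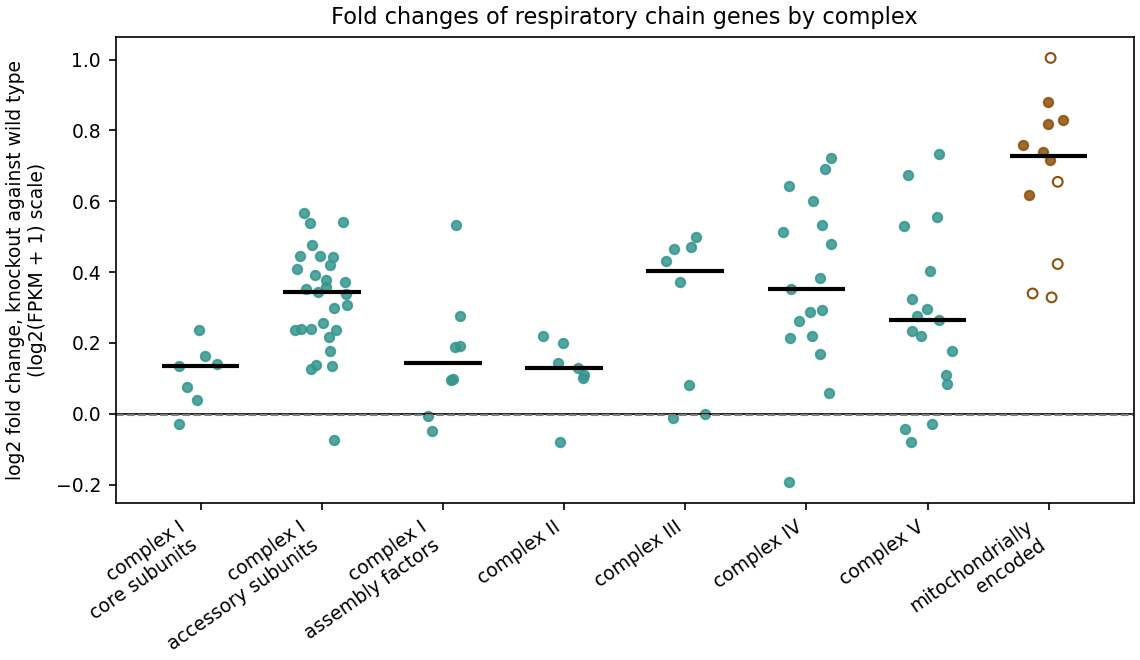
Log2 fold change of knockout against wild type (log2(FPKM + 1) scale) for each of the 105 genes, grouped by complex; bars are group medians, the dashed line is the median of all tested genes, and open points are the 5 mitochondrial genes inside the copied stretch. Complex I core subunits (median 0.14) and complex II (0.13) sit near the line of all genes, complex III (0.40) above it, and the mitochondrially encoded genes (0.73) highest. The groups are not matched for coding length.

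Accessory subunits of complex I surround its core and hold it together. Ndufa1, a small membrane subunit, had the highest fold change of this group: 75.4 and 95.7 FPKM in wild type 1 and 2 and 132 and 121 FPKM in knockout 1 and 2 (log2 fold change 0.57 ± 0.14 (SE), limma adjusted p = 0.189). Ndufa3, the most abundant, was at 176 and 202 FPKM against 245 and 245 FPKM (log2 fold change 0.38). Ndufa10, one of the longest accessory subunits, had the lowest fold change, -0.074, with 94.9 and 91.7 FPKM against 80.9 and 96.8 FPKM. Both knockout libraries were above both of wild type for 26 of the 29 accessory genes, and below them for 0. Of all tested genes, 22.7% were above and 25.4% below.

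The 7 core subunits carry the flavin and the iron-sulphur clusters of complex I. Ndufs1, the largest subunit, was at 43.8 and 38.6 FPKM in wild type 1 and 2 and at 35.5 and 45.7 FPKM in knockout 1 and 2. Ndufv2 had the highest fold change, 0.24, with 72.9 and 75.8 FPKM against 88.7 and 86.7 FPKM, and was the 1 core gene whose groups did not overlap. Ndufv1, which binds NADH, was at 90.5 and 95.4 FPKM against 87.4 and 104 FPKM (chosen after its values were seen).

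Among the assembly factors of complex I, Ndufaf2 was at 7.68 and 7.91 FPKM in wild type 1 and 2 and at 12.1 and 11.3 FPKM in knockout 1 and 2 (log2 fold change 0.53 ± 0.11 (SE), limma adjusted p = 0.157). Ndufaf8, the most abundant, was at 24.7 and 33.7 FPKM against 34.9 and 35.5 FPKM, with wild type 2 close to the knockout libraries. Ndufaf1, which acts early in assembly, was at 12.6 and 14.5 FPKM against 12.1 and 14.0 FPKM.

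Complex II, succinate dehydrogenase, links the citric acid cycle to the chain. Sdha, its flavoprotein and most abundant gene, was at 357 and 326 FPKM in wild type 1 and 2 and at 288 and 362 FPKM in knockout 1 and 2, so that the groups overlapped. Sdhaf4, which helps to form the flavoprotein part, had the highest fold change of the group, 0.22, with 20.8 and 25.6 FPKM against 25.96 and 28.2 FPKM. Of the 7 genes, 2 lay higher in both knockout libraries, a share near the 22.7% of all tested genes.

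Complex III genes split by subunit. The 5 small subunits Uqcr10, Uqcr11, Uqcrb, Uqcrh and Uqcrq (168 to 333 nt of coding length) had fold changes of 0.37 to 0.50. For all 5, both knockout libraries were above both of wild type, as for 22.7% of all tested genes. Among other nuclear protein-coding genes of up to 500 nt that share was 49.0%. The core proteins Uqcrc1 and Uqcrc2 and the iron-sulphur protein Uqcrfs1 (822 to 1440 nt) were at -0.0011, -0.011 and 0.081. The part of length in this split was not tested. Uqcr11, the highest, was at 154 and 186 FPKM in wild type 1 and 2 and at 230 and 250 FPKM in knockout 1 and 2. Uqcrc2 was at 146 and 146 FPKM against 134 and 157 FPKM. Cyc1, cytochrome c1, which the symbol rule does not take, was at 94.0 and 97.7 FPKM against 112 and 135 FPKM (log2 fold change 0.36). The grouping by size was made after the values were seen.

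Complex IV has several subunits with alternative isoforms. The ubiquitous forms were at 75.8 FPKM or more in every library. Cox6a1, the most abundant nuclear gene of the complex, was at 406 and 499 FPKM in wild type 1 and 2 and at 546 and 553 FPKM in knockout 1 and 2. Cox4i1 was at 312 and 431 FPKM against 449 and 403 FPKM. Cox8a was at 320 and 354 FPKM against 368 and 463 FPKM. Cox7a2 was at 75.8 and 96.1 FPKM against 137 and 123 FPKM, and Cox6b1 at 210 and 228 FPKM against 272 and 288 FPKM. Wild type 1 was lowest in all 5 of these genes.

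Isoforms known from other tissues were lower and varied among themselves. Cox7a1, the heart and muscle form, was at 4.57 and 4.66 FPKM in wild type 1 and 2 and at 8.41 and 8.13 FPKM in knockout 1 and 2. Its log2 fold change of 0.72 ± 0.12 (SE) had the lowest limma adjusted p of any nuclear respiratory chain gene, 0.114. Relative to Cox7a2 it stood at 6.02%, 4.85%, 6.15% and 6.58% in the same order, so that the ratio in wild type 1 lay close to those of the knockout libraries. Cox6a2, also a muscle form, was at 28.3 and 31.6 FPKM against 41.1 and 23.7 FPKM, and its groups overlapped. Its gene lies within Itgad on the opposite strand, which stood at 0.09 to 0.24 FPKM.

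Cox4i2, a form known from lung, was the 1 gene with both knockout libraries lower, at 36.4 and 38.3 FPKM in wild type and 36.0 and 29.4 FPKM in knockout 1 and 2 (log2 fold change -0.19 ± 0.13 (SE), limma adjusted p = 0.522). Its level was below that of Cox4i1 in every library, at 11.7%, 8.88%, 8.02% and 7.30% of it. Cox6b2, known from testis, was at 15.6 and 24.8 FPKM against 27.8 and 37.6 FPKM, or 7.41%, 10.8%, 10.2% and 13.0% of Cox6b1. Cox7b2 and Cox8c, also known from testis, were listed at 0 in all libraries. Cox8b, a muscle form, was listed at 0 in wild type and at 0.77 and 0.16 FPKM in knockout 1 and 2.

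Ndufa4 is a complex IV subunit despite its complex I symbol, and was at 196 and 264 FPKM in wild type 1 and 2 and at 354 and 298 FPKM in knockout 1 and 2. Its relative Ndufa4l2, known to be induced by low oxygen, was at 6.49 and 4.17 FPKM against 4.64 and 8.88 FPKM, without order by genotype. The supercomplex factor Cox7a2l was at 153 and 193 FPKM against 218 and 184 FPKM, and Cox7b at 135 and 179 FPKM against 227 and 208 FPKM. Of 16 muscle markers 4 (Sln, Myh2, Myh1 and Tnnc2) were at 0 in all libraries, and 10 stayed under 1 FPKM in every library. The 4 that passed the limit had a median log2 fold change of 0.51, from Myh6 at -0.80 to Actc1 at 1.08, with 2 higher and 1 lower in both knockout libraries. The list summed to 51.6 and 45.7 FPKM against 47.2 and 25.6 FPKM, most of it Myh6. Of the 8 brown fat and adipocyte markers, Ucp1 and Lep were at 0, and the 1 that passed the limit, Fabp4, had a log2 fold change of 1.19 with both knockout libraries higher. The list summed to 42.7 and 34.9 FPKM against 64.4 and 124 FPKM, and the part of these markers was not tested.

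**Figure D3:**
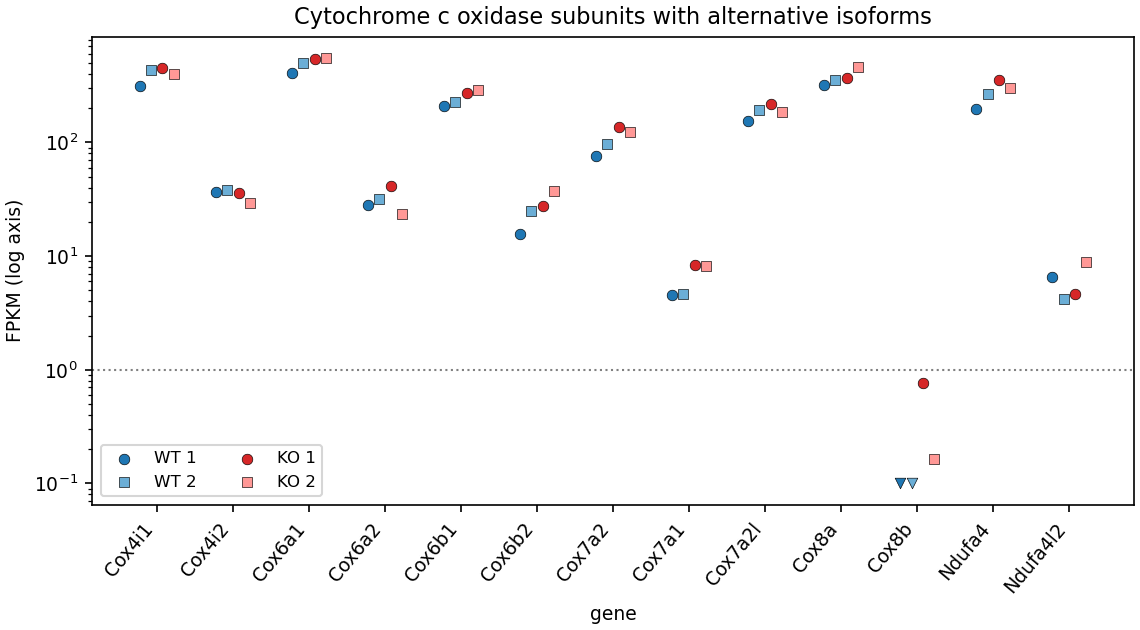
FPKM (log axis) of complex IV subunits with alternative isoforms, with 1 point per library in blue (wild type) and red (knockout); triangles mark values of 0 and the dotted line the limit of 1 FPKM. The ubiquitous forms Cox4i1, Cox6a1, Cox6b1, Cox7a2, Cox8a and Ndufa4 stand at 75.8 FPKM or more in every library and the alternative forms Cox4i2, Cox6a2, Cox6b2, Cox7a1, Cox8b and Ndufa4l2 at 41.1 FPKM or less; Cox7b2 and Cox8c, at 0 throughout, are not drawn.

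ATP synthase (complex V) had both the highest fold change of any nuclear gene and the most abundant nuclear gene. Atp5k, a small membrane subunit, was at 76.3 and 98.5 FPKM in wild type 1 and 2 and at 151 and 139 FPKM in knockout 1 and 2 (log2 fold change 0.73 ± 0.15 (SE), limma adjusted p = 0.141). Atp5b, the catalytic beta subunit, was at 949 and 919 FPKM against 811 and 964 FPKM, with a fold change of -0.079. Atp5a1, its alpha partner (chosen after its values were seen), was at 483 and 472 FPKM against 432 and 497 FPKM. In both, knockout 1 was lowest and knockout 2 highest.

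The fold change of nuclear genes was related to coding length, that of the longest annotated coding sequence of the gene. Across the 93 genes Pearson's r between the log2 fold change and log2 coding length was -0.74 and Spearman's rho -0.75. Across 12329 nuclear protein-coding genes r was -0.37 and rho -0.43. The relation was also present between the 2 wild-type libraries: the difference wild type 2 minus wild type 1 gave r = -0.51 and rho = -0.50 over the 93 genes, and -0.35 and -0.38 over the 12329. Genes of 1 library share its depth and preparation and are not independent replicates, so these are descriptions.

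Classes of coding length, set after the values were seen, show the size of the relation. The 55 nuclear respiratory chain genes of up to 500 nt had a median log2 fold change of 0.35, and 1019 other nuclear protein-coding genes of that length 0.19. Over 500 and up to 1000 nt the medians were 0.18 (25 genes) and 0.065 (2873 other genes). Over 1000 nt they were -0.0011 (13 genes) and -0.059 (8344 other genes). At a limma unadjusted p under 0.05, 31 of the 55 short genes were higher, 5 of the 25 and 0 of the 13, and 0 were lower. Among other nuclear protein-coding genes of these lengths, 20.7%, 10.9% and 5.08% were higher at that limit. Both knockout libraries lay above both of wild type for 47 of the 55, 12 of the 25 and 2 of the 13. For the other genes of these lengths the shares were 49.0%, 32.1% and 15.2%. The log2 fold change was above 0 for 55, 21 and 6 of the respiratory chain genes, and for 82.2%, 65.0% and 37.9% of the others. All 13 of the long genes were highest in knockout 2, as were 2182 of the 8344 other genes of that length. The part of length in the fold changes was not tested.

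**Figure D4:**
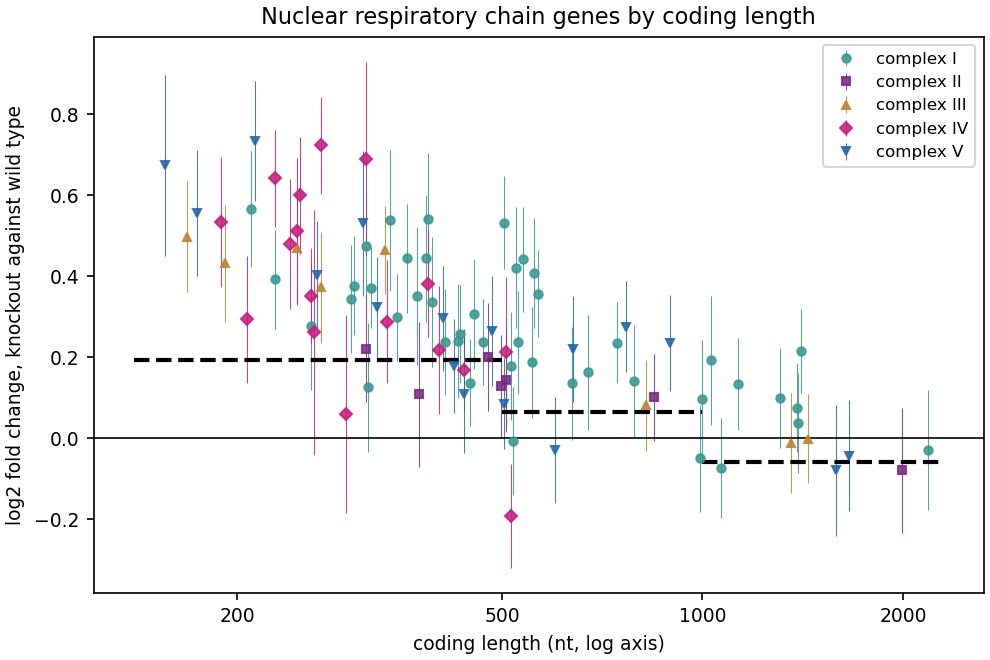
Log2 fold change of knockout against wild type for the 93 nuclear respiratory chain genes against coding length (log axis), with bars of 1 standard error from limma; dashed lines are the medians of other nuclear protein-coding genes of up to 500 nt (0.19), over 500 and up to 1000 nt (0.065) and over 1000 nt (-0.059). Fold changes are lower at greater length (r = -0.74), and the genes of up to 500 nt lie mostly above the dashed line.

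The spread within genotypes bears on the same values. Between the wild-type libraries the median difference (wild type 2 minus wild type 1, log2) was 0.21 over the nuclear genes, with 83 of 93 higher in wild type 2. It was 0.18 over the 12 mitochondrial genes and 0.23 over the 7 outside the copied stretch. Over all 13147 tested genes it was -0.0030, with 6496 higher in wild type 2. The median of 0.21 is close to the fold change between genotypes, 0.26, which was 0.15 without wild type 1 and 0.37 without wild type 2. Between the knockout libraries (knockout 2 minus knockout 1) the median difference was 0.033 over the nuclear genes. It was -0.35 over the mitochondrial genes, all 12 of which were lower in knockout 2, and -0.30 over the 7 outside the copied stretch. Over all 13147 tested genes it was 0.045, with 7666 higher in knockout 2. The mitochondrial median between genotypes was 0.54 to 0.90 when 1 library was left out.

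The cytosolic ribosomal proteins, also short and abundant, serve as a comparison added after the values were seen. Their median log2 fold change was 0.23 over 80 genes, close to that of the nuclear respiratory chain genes, but both knockout libraries were above both of wild type for 7 of the 80, against 61 of the 93 respiratory chain genes and 22.7% of all tested genes. As deviations from the mean of the 4 libraries, their medians were -0.34 and 0.12 for wild type 1 and 2, against 0.24 and -0.025 for knockout 1 and 2. The nuclear respiratory chain genes had -0.25 and -0.030 against 0.12 and 0.16, and the mitochondrial genes outside the copied stretch -0.50 and -0.26 against 0.56 and 0.23.

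**Figure D5:**
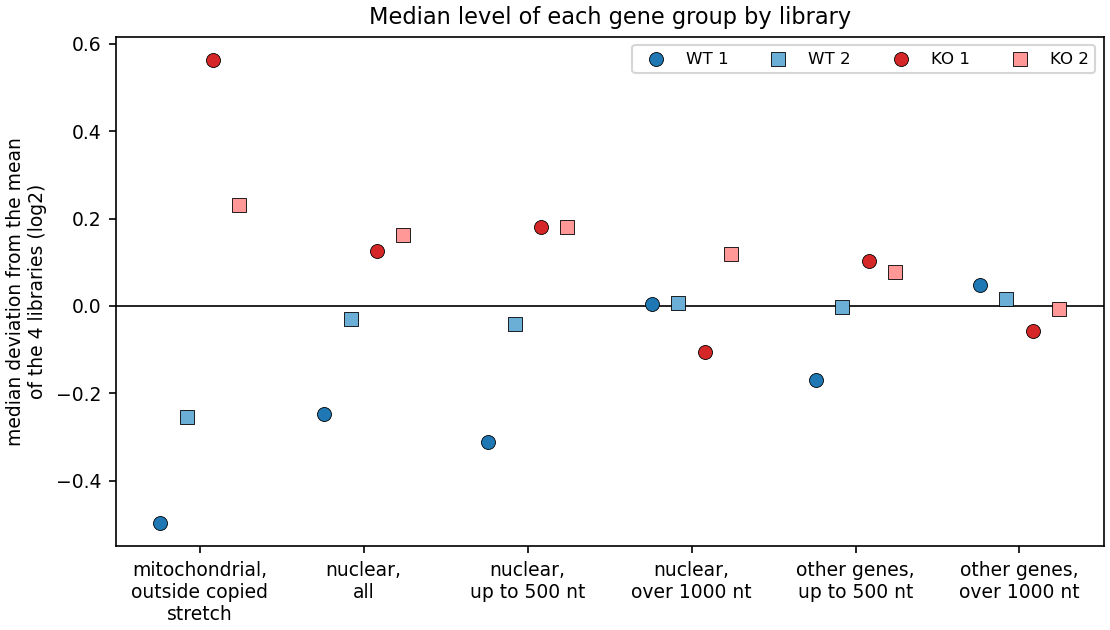
Median deviation of each gene group from the mean of the 4 libraries (log2), by library; blue points are wild type and red points knockout. Mitochondrial genes outside the copied stretch span -0.50 to 0.56, nuclear genes -0.25 to 0.16, and the nuclear genes of over 1000 nt keep wild type between the 2 knockout libraries.

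Regulators of mitochondrial content, from lists of the pathway, showed no call. The 9 tested regulators of mitochondrial biogenesis had a median of -0.034. Pprc1, a coactivator related to PGC-1alpha, was at 28.8 and 27.4 FPKM in wild type 1 and 2 and at 16.9 and 16.2 FPKM in knockout 1 and 2 (log2 fold change -0.73 ± 0.10 (SE), limma adjusted p = 0.0918), and Esrra, a nuclear receptor that drives respiratory genes, had the highest value, 0.22. The 17 genes of mitochondrial DNA maintenance and transcription had a median of 0.074, with Ssbp1, the single-strand binding protein, at 0.24 and the nuclease Mgme1 at -0.17. Of the 17 genes of mitochondrial RNA processing and stability (median -0.038), Slirp was at 6.33 and 8.26 FPKM against 12.2 and 12.1 FPKM (log2 fold change 0.68, limma adjusted p = 0.158), while its partner Lrpprc, with which it stabilises mitochondrial messenger RNA, was at 20.9 and 16.7 FPKM against 14.0 and 17.4 FPKM.

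Other mitochondrial lists had smaller medians than the respiratory chain, but the lists were not matched for coding length. By length, the nuclear respiratory chain genes had medians of 0.35 up to 500 nt and -0.0011 over 1000 nt. The 76 tested mitochondrial ribosomal proteins were at 0.12, with 9 higher and 0 lower at an unadjusted p under 0.05, near the 8.36% of all tested genes that were higher. They ran from Mrpl55 at 0.45 to Mrpl39 at -0.15. The 17 citric acid cycle genes were at -0.036, with 0 past that limit, from Suclg1 at 0.18 to Dlat at -0.14. The 15 genes of the outer membrane, import and carriers were at 0.046, from the import channel Timm23 at 0.50 to the chaperone Hspa9 at -0.22. Among the 17 electron carrier genes (median 0.036), Cycs, cytochrome c, was highest at 0.43 and Coq10b lowest at -0.34.

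Assembly factors outside the symbol rule lay in the same range. The 20 tested factors of complex IV had a median of 0.12 (Pet100 highest at 0.48, Coa7 lowest at -0.21), the 7 complex III genes outside the rule 0.29 (Lyrm7 at 0.47, Ttc19 at -0.14), and the 4 complex V factors 0.033 (the inhibitor Atpif1 at 0.20, Atpaf1 at 0.011). The full list of complex I assembly factors, 17 tested, had a median of 0.16 with Acad9 lowest at -0.15. Called genes numbered 0 in each of these lists by limma. At an unadjusted p under 0.05, 1 complex IV factor, 3 complex III genes and 2 complex I factors were higher, and 0 were lower. Of all tested genes, 8.36% were higher at that limit.

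Promoters were compared because many nuclear respiratory genes are known targets of nuclear respiratory factor 1 (NRF1), of the ETS factor GABP and of YY1. GABP has also been called nuclear respiratory factor 2, and it is a different protein from the Nrf2 deleted here. RefSeq promoters (GRCm38.p6, 250 bases before to 50 after a start) were found for 75 of the 93 nuclear genes, 80 promoters in all. Matches on either strand were counted to GCGCA and GCGC with any 1 base between them (NRF1), CCGGAAG (ETS), ATGGCGG (YY1) and TGACNNNGC (the core of the antioxidant response element, to which Nrf2 binds). None of these 4 patterns was allowed a mismatch.

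The NRF1 pattern was in 27.5% of the 80 promoters and in 4.6% of 32851 promoters of the same length, the ETS pattern in 25% and 8.9%, YY1 in 17.5% and 4.1%, and the antioxidant core in 16.2% and 12.4%. Genes with and without a match had similar median log2 fold changes: 0.23 and 0.30 for NRF1, 0.28 and 0.25 for ETS, 0.31 and 0.25 for YY1, and 0.24 and 0.29 for the antioxidant core. A match is a description of letters and not a site. The promoters of Atp5k and Atp5b, the nuclear genes with the highest fold change and the highest level, of Ndufa1, which holds an antioxidant core, and of Cox7a1, which has the lowest adjusted p, are given 5′ to 3′ on the gene's strand, with matches in capitals.
Atp5k, chr5:108434350-108434649, minus strand: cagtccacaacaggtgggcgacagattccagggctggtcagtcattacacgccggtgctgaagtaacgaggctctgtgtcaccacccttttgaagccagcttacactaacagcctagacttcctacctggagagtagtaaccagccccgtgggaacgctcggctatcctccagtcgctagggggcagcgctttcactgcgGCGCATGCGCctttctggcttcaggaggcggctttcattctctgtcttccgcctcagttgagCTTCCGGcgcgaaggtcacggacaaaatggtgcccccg
Atp5b, chr10:128083057-128083356, plus strand: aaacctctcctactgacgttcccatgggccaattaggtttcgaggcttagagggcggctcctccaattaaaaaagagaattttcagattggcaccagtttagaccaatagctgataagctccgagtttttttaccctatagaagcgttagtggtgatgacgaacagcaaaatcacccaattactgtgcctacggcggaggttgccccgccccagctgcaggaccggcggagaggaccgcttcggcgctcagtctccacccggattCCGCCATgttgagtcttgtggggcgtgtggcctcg
Ndufa1, chrX:37191189-37191488, minus strand: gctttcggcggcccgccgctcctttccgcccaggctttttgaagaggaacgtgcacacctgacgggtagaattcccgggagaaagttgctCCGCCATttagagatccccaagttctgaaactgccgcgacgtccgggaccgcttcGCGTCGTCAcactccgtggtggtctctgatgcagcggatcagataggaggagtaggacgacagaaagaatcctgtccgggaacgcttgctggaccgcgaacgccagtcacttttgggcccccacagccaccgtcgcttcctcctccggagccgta
Cox7a1, chr7:30183921-30184220, plus strand: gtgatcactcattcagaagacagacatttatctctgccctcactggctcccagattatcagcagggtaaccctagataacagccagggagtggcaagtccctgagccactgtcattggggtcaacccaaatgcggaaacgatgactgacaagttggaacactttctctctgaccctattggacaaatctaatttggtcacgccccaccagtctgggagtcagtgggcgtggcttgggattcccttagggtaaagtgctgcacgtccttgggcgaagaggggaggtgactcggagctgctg

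Atp5k has an NRF1 and an ETS match, Atp5b a YY1 match at its start, Ndufa1 a YY1 match and an antioxidant core, and Cox7a1 no match to the 4 patterns. Ndufa1 and Cox7a1 were at 0.57 and 0.72, and both had groups that did not overlap.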

How the data were processed

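Whole-tumour RNA was sequenced from 4 samples, 2 wild type and 2 knockout. The authors deposited FPKM values per gene. Per the submitters' processing notes the build was mm10 and TopHat2 and DESeq2 were among the tools, without versions or roles. Not given in the sources used here are the read counter, its annotation, whether strand was used and how reads with several matches were treated. With strand unknown, 34 of the 105 genes have exons that overlap a gene on the opposite strand and cannot be told apart from it there, and 18 nuclear ones share an identical run of at least 100 bases with another transcript.

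Of 35275 identifiers, 34490 matched a symbol in GENCODE M21 (GRCm38, the assembly of mm10), which gives the coordinates. The values of 21600 of 21601 genes above 0 became whole reads at some whole-number gene length, within 0.0002 reads plus 2e-08 per read. The length was an annotated one for 5488 genes (19 of the 105) and otherwise the smallest that worked, so reads of those can be undercounted. Library totals follow from these steps.

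The genotypes were compared by limma (3.58.1, under R 4.3.3) on FPKM values after adding 1 and taking log2. The variance prior followed an intensity trend and was worth 4.12 degrees of freedom beside 2 from the residuals. P-values were adjusted by Benjamini-Hochberg over 13147 genes, with calls below 0.05. The script was tested on simulated data. Near-identical transcripts were found with blastn 2.17.0. Replicate libraries differed by more than sampling noise (chi-square per gene 23.7 for wild type and 35.0 for knockout).

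Genes, lists and tests were chosen with earlier results of these data known. Named by rule were the mitochondrial genes, the complex IV isoforms, the genes just inside and outside the limit, Nfe2l2, the highest and lowest fold change and highest level in each complex, and the highest and lowest fold change of each other list; any other gene was chosen after its values were seen. The values of 1 gene that the rule names are not reported here. Alternatives were other scalings, pseudocounts of 0.1 and 10, no filter or a filter at 5 FPKM, limma without the trend, limma-voom on the recovered reads, an adjusted p under 0.1, the replicate number as a block and leaving out each library. Summaries without the mitochondrial genes wholly inside the copied stretch were added after seeing the data. Mitochondrial ribosomal RNA was not analysed here.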

Additional observations from a re-analysis of the deposited data

How the results depend on the processing

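Other scalings, pseudocounts and filters kept the sign of the fold change of every named respiratory chain gene they tested. The number of genes called over the whole table, 15, was 1 with no filter on low values, 8 with limma-voom on recovered reads, 65 at an adjusted p under 0.1, and 10 to 221 when 1 library was left out (221 without knockout 1, 49 without knockout 2). Of the respiratory chain genes, 0 to 1 were called when 1 library was left out and 1 at an adjusted p under 0.1, in each case mt-Nd3 (limma adjusted p = 0.0315 without knockout 2). The difference between mitochondrial and nuclear genes, 0.61 by medians, was 0.40 by means; its cause was not tested. When 1 library was left out, medians ran from 0.20 to 0.46 for complex I accessory subunits, 0.0099 to 0.25 for its core, 0.25 to 0.53 for complex III and 0.15 to 0.34 for complex V, and 1 to 11 genes lay lower in knockout without overlap. Log2 fold changes that changed sign ran from -0.20 to 0.045 for Atp5b, -0.018 to 0.45 for Cox4i1, -0.33 to 0.44 for Cox6a2, -0.20 to 0.054 for Ndufa10, -0.14 to 0.67 for Ndufa4l2, -0.15 to 0.049 for Ndufaf1, -0.21 to 0.15 for Ndufs1, -0.24 to 0.085 for Sdha, -0.13 to 0.11 for Uqcrc2 and -0.42 to 1.26 for mt-Atp8. The cause was not tested.

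The replicate numbers of the labels are only names: deviations of same-numbered libraries correlated at -0.306. With the replicate number as a block, 69 genes were called, among them 1 respiratory chain gene, mt-Nd3 (limma adjusted p = 0.0473). Depth limits genes with few reads, such as mt-Nd4l (0 to 1 reads) and mt-Atp8 (3 to 19 reads), and 2 libraries a group limit every gene.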
